A study of Mus musculus with 12 samples.

Results

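MiR-204 and miR-211 are closely related microRNAs (miRNAs), short RNAs that lower the translation and stability of messenger RNAs carrying a match to their seed. The pair was taken from a panel of TaqMan real-time PCR assays by name, leaving out starred strands, and makes up 2 of the 488 miRNA names assayed when species prefix and arm are set aside. Each has 1 assay, and both have a listed ratio, as do 387 of the 488 names. The RNA came from pancreatic islets, picked by hand, of male C57BL/6 mice at 2 to 3 months of age. The dams of the LP0.5 group (6 samples) were on a low-protein diet during pregnancy, and those of the Control group (6 samples) on a control diet; no genetic change or later treatment of the offspring is named for either group. Islets of both groups had a night in culture medium before RNA was extracted. Whether a sample holds islets of 1 mouse or of several, and whether samples come from separate litters, is not stated in the labels.

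The measurement analysed is 1 linear ratio per spot in the authors' deposited table, headed as low-protein against control, so that a value above 1 stands for a higher level in LP0.5 islets. The columns of single-sample values carry names that match no sample label and were not used, so no ratio below has a replicate error, an n of its own or a p-value, and no value per sample can be shown. The direction rests on the heading alone. The study is known for a rise of miR-199a-3p in low-protein islets, yet the authors' deposited table lists it at 0.422, below 1, so the heading and that finding point in opposite directions. If the heading were turned around, every direction given here would turn with it, while the distance between miR-204 and miR-211 would keep its size.

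MiR-204 lies in an intron of Trpm3 and miR-211 in an intron of Trpm1, genes for ion channels of the melastatin family, and each miRNA is made from the transcript of its host. MiR-204 is known from the eye and from beta cells. There the redox regulator Txnip raises miR-204, which targets the messenger of MafA, a transcription factor that drives the insulin gene. MiR-211 is best known from the melanocyte lineage.

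The mature 5p strands, which unstarred assay names of this pair refer to, are shown because nearly all of their letters are shared. Sequences are from RefSeq's mouse table, build GRCm38.p6, where both names were matched; the bases that the TaqMan assays target were not analysed here. Capitals mark the seed, bases 2 to 8.
mmu-miR-204-5p: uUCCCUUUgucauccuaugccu
mmu-miR-211-5p: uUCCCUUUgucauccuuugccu
The strands have the same seed and are identical at 21 of 22 positions. The only difference is A17U, counted from 1 at the 5′ end with the base of miR-204 first, and it lies outside the seed. Of 1679 mature mouse names in the RefSeq table, 3 carry this seed, and the remaining name, miR-7670-3p, has no assay on the panel. MiR-204-5p is at chr19:22750610-22750631 and miR-211-5p at chr7:64205831-64205852, both on the plus strand, and the hairpins lie inside the spans of Trpm3 and Trpm1, which are on that strand too.

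The opposite strands of the hairpins are far less alike. They are shown with bases 2 to 8 in capitals for comparison with the 5p strands.
mmu-miR-204-3p: gCUGGGAAggcaaagggacgu
mmu-miR-211-3p: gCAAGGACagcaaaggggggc
Set side by side without gaps, these strands are identical at 14 of 21 positions and have different seeds. The hairpins are given with the 5p strand in capitals, to show that the shared stretch sits in otherwise different precursors of 68 and 106 bases.
Mir204: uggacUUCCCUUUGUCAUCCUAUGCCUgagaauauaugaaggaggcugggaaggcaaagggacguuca
Mir211: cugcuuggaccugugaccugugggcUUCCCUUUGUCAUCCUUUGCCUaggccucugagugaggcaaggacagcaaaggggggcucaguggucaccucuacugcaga

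The pair was listed on opposite sides of 1. MiR-204 had a ratio of 1.26 in the authors' deposited table, a log2 ratio of 0.33. MiR-211 had a ratio of 0.632 in the authors' deposited table, a log2 ratio of -0.66, or 1.58-fold lower in LP0.5 islets by the heading. These miRNAs, 1 base apart, thus differed by 0.99 on the log2 scale, a ratio of ratios of 1.99 for miR-204 over miR-211. In RNA of whole islets, fewer cells of a type and less RNA per cell cannot be told apart.

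Taking 1.5-fold from 1 as a limit of size, miR-211 passed it below 1 and miR-204 did not pass it. Over all 528 miRNA names with a ratio (arms and starred strands counted separately), 93 (17.6%) were at least 1.5-fold below 1 and 99 (18.8%) at least 1.5-fold above, so a ratio of the size of miR-211's was common on the panel. Relative to the other small RNA controls in place of U6 these counts were 125 below and 87 above. At a limit of 2-fold neither member passed, beside 24.8% of names on either side. Assays came in an A set and a B set, and both members are in the A set, where 304 of 377 miRNA spots had a ratio. Within it 42 spots (13.8%) were listed lower than miR-211 and 60 (19.7%) higher than miR-204. MiR-204 lay just above the 75th percentile of the A set, which was at 1.19, while miR-211 lay below the 25th percentile of 0.796.

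**Figure D1:**
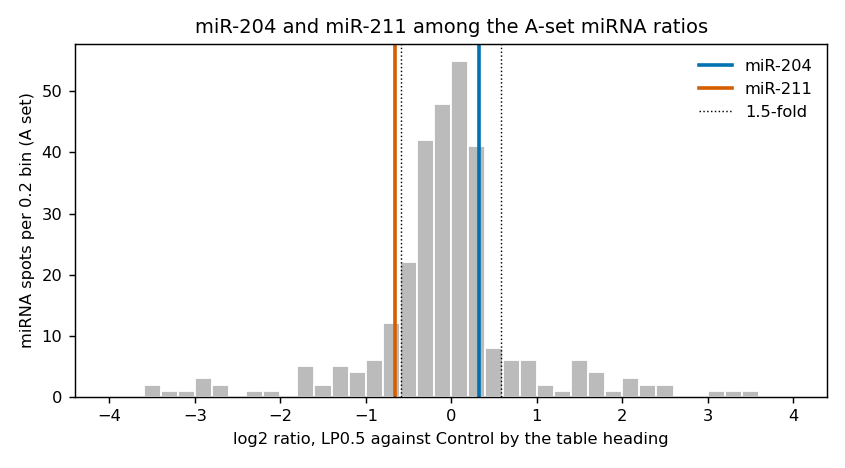
Histogram of the log2 ratios of the A-set miRNA spots in bins of 0.2, with the count of spots on the vertical axis; blue and orange lines mark miR-204 (0.33) and miR-211 (-0.66), dotted lines mark 1.5-fold, and 7 spots beyond 4 on either side are not drawn. MiR-204 sits on the upper shoulder of the central peak inside the 1.5-fold limits, and miR-211 sits just outside the lower limit.

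In the families compared, other miRNAs that differ at 1 base were mostly listed close to each other. Among well-known families whose arm could be assigned, 12 other pairs had the same seed, the same length, 1 differing base and a ratio for both in the same assay set, all of them in the A set. They involve 21 miRNAs and are not independent, since let-7a is in 3 of them and let-7c in 2. Their distance ran from 0.03 to 0.83 on the log2 scale with a median of 0.15 (1.11-fold), against 0.99 for miR-204 and miR-211, and none of the 12 was wider. The authors' deposited table listed miR-10a at 1.22 and miR-10b at 1.19, the closest pair. The next widest was miR-17 at 0.490 and miR-106a at 0.873 in the authors' deposited table, both below 1. Opposite sides of 1 were seen for 2 of the 12, let-7a (1.17) with let-7f (0.840) and miR-29a (1.04) with miR-29c (0.905), all from the authors' deposited table. Not every related pair on the panel was compared. The 1-base neighbours were chosen after values were seen, so other pairs that differ at 1 base can be missing from the 12. In the A set, log2 ratios were 0.98 for miR-133a and -0.33 for miR-133b, farther apart than miR-204 and miR-211 and on opposite sides of 1 as ratios. They were -0.12 for miR-7a and -0.93 for miR-7b, and 0.02 for miR-135a and -0.27 for miR-135b, which are closer. MiR-204 and miR-211 are thus the widest only among the pairs compared. This is a description of single ratios without replicate error, and how well each assay tells its target from the 1-base neighbour was not tested.

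**Figure D2:**
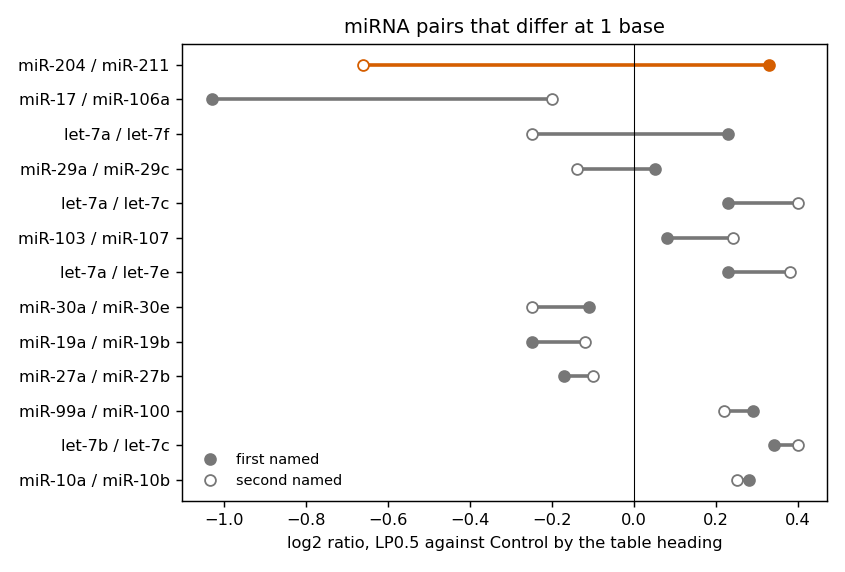
Log2 ratios of 13 pairs of miRNAs that differ at 1 base, 1 pair per line, with a filled point for the first and an open point for the second name; the pairs are ordered by distance. The line joining miR-204 and miR-211 (orange) is the longest of those drawn at 0.99 and crosses 0, and most of the others (grey) are short. Not every related pair on the panel is drawn.

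Different assays of 1 miRNA name were at times farther apart than miR-204 and miR-211. The panel holds 38 miRNA names with a ratio from each of 2 assays, some named for different species and 26 of the 38 split between the assay sets, and their median distance was 1.31-fold. They are different assays, in some cases perhaps of different sequences, and not repeats of 1 measurement. In 9 of the 38 (23.7%) the assays lay farther apart than miR-204 and miR-211. For the 12 names whose assays are in the same set, 2 were farther apart and the median distance was 1.38-fold. The distance between miR-204 and miR-211 is therefore within the range by which different assays of 1 miRNA name differed.

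Small RNA controls next to the members were closer to 1 than miR-211 was. The assays of miR-204 and miR-211 sit in neighbouring positions of block B1 by their spot codes, B1b7 and B1b6. In this block the authors' deposited table listed U6, the RNA that the ratios are relative to, at 1.02. Ratios there were 0.971 for U87, 1.12 for Y1, 1.20 for snoRNA202 and 0.850 for snoRNA135, again from the authors' deposited table. The other 31 miRNA spots of the block with a ratio had a median of 1.07, with 18 above 1 and 13 below. Over the 8 blocks of the A set, 32 control spots other than U6 were listed; none was lower than miR-211, and 7 were higher than miR-204. MiR-204 thus lay within the range of the A-set spots of these controls, and miR-211 lay below it. The plant assay ath-miR159a, which has no mouse target, is not among them. The authors' deposited table listed it at 1.96 in this block, farther from 1 than miR-211. Another A-set block had it at 0.139, lower than miR-211. The place of miR-211 below the small RNA controls does not hold for the B set. There U87 spots ran from 0.133, lower than miR-211, to 1.13. The lowest spots of the other B-set controls were 0.883 for Y1, 0.972 for U6, 0.975 for snoRNA135 and 0.996 for snoRNA202.

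The choice of reference moved both members by the same amount and left them on opposite sides of 1. Set against snoRNA135, snoRNA202, U87 and Y1 of the A set instead of U6, the log2 ratio was 0.13 for miR-204 and -0.86 for miR-211, ratios of 1.10 and 0.552. With the median miRNA of the A set as the reference, the log2 ratios were 0.37 and -0.63. The difference of 0.99 between the members does not depend on the reference, because both are in the same set.

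**Figure D3:**
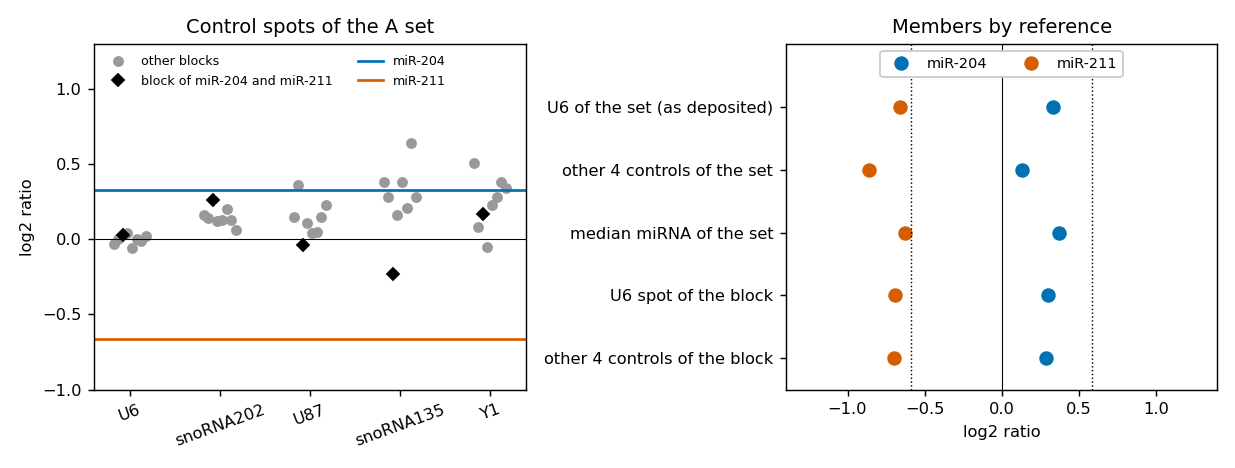
Left, log2 ratios of the control spots of the A set, 8 per control, with the block of miR-204 and miR-211 as black diamonds and lines at the members' ratios; right, log2 ratios of both members under 5 references, with dotted lines at 1.5-fold. The controls scatter around and above 0, miR-211 (orange) lies below all of them, and under each reference miR-204 (blue) is above 0 and miR-211 is below the lower 1.5-fold line.

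The starred strand of the miR-204 hairpin, measured by an assay named for the rat, had a ratio of 1.06 in the authors' deposited table, a log2 ratio of 0.08. It was left out of the pair by the naming rule and lies in the B set, where 133 of 262 miRNA spots with a ratio were lower and 128 higher. It was thus close to the middle of its set and, like miR-204 itself, within 1.5-fold of 1. No starred assay of miR-211 was analysed here.

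MiRNAs linked to insulin production or to the Txnip and MafA pathway of miR-204 were listed on both sides of 1, from 0.490 to 1.98. The list joins miRNAs of insulin transcription and translation, miR-30d for MafA, miR-17 for Txnip and the 5 members of the miR-200 family, which are listed as induced by Txnip and not as acting on insulin. Of its 13 names, 12 had a ratio, 5 above 1 and 7 below, with a median ratio of 0.967, against 1.01 over all 528 names. At least 1.5-fold from 1 were 1 above and 1 below, beside 36.4% on either side over all names. With the other small RNA controls as the reference the list had 3 above 1 and 9 below, 2 of these at least 1.5-fold below, while all names went to 197 above and 331 below. With the median miRNA as the reference the list had 6 and 6, and all names 261 and 267. Neither member is on this list.

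By role, the miRNAs whose loss lowers insulin transcription stayed within 1.5-fold of 1: the authors' deposited table gives miR-24 a ratio of 0.931, miR-26a 0.989, miR-182 1.15 and miR-148a 0.946. MiR-30d, which raises MafA and so acts opposite to miR-204, was at 1.06 in the authors' deposited table. MiR-17, which targets the messenger of Txnip, was the lowest of the list at 0.490 in the authors' deposited table. Txnip also induces the miR-200 family in beta cells, and its members were found on both sides of 1. Assays of miR-200b (1.06 and 1.07) and miR-200c (1.13 and 1.11) were above 1 in the authors' deposited table. Their mean log2 ratios were 0.09 and 0.16. With the other small RNA controls the A-set reference shifts by 0.20, which is more. The remaining family members miR-141, miR-429 and miR-200a were at 0.744, 0.782 and 0.822 in the authors' deposited table, nearer to 1 than miR-211. MiR-133a, which lowers insulin synthesis by targeting a binding protein of its messenger, was the highest at 1.98 in the authors' deposited table. MiR-196b, tied to insulin translation, had no ratio.

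**Figure D4:**
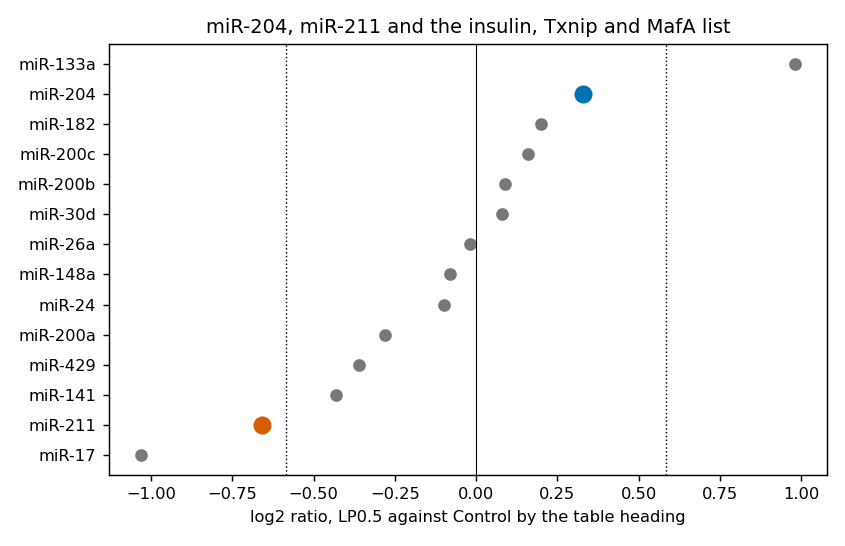
Log2 ratios of miR-204 (blue), miR-211 (orange) and the 12 miRNAs with a ratio on the list of insulin production and the Txnip and MafA pathway (grey), ordered by ratio, with dotted lines at 1.5-fold; names with 2 assays are shown at the mean of their log2 ratios. MiR-204 is second from the top below miR-133a and miR-211 is second from the bottom above miR-17.

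Markers of islet cell types are described by their ratios only. Such ratios cannot check the labelled tissue, since levels were not analysed here. The 7 endocrine markers all had a ratio, 4 above 1 and 3 below with a median of 1.15, and miR-375, the main islet miRNA, was at 1.17 in the authors' deposited table, close to miR-204. Only miR-7b, at 0.523 in the authors' deposited table, was at least 1.5-fold from 1 among them, on the side of miR-211. Median ratios for other cell types that an islet preparation can hold were 0.970 for 3 acinar names, 0.805 for 6 mesenchymal names and 1.20 for the 5 of 6 blood cell names with a ratio, and the endothelial miR-126 was at 0.975 in the authors' deposited table. With the assays of a name averaged on the log2 scale, mesenchymal markers ranged from 0.403 to 7.14 and blood cell markers from 0.305 to 1.78. Single assays went lower, as the authors' deposited table gives the assays of the mesenchymal miR-143 ratios of 0.190 and 1.11. Their part in the ratios of miR-204 and miR-211 was not tested.

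Over the whole panel 656 of 846 spots had a ratio. The plant assay ath-miR159a, which has no mouse target, had a ratio at 2 of its 8 A-set spots, 1.96 in the block of miR-204 and miR-211 and 0.139 in another, both from the authors' deposited table. How near to the detection limit any assay was, the members' included, was not analysed here.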

How the data were processed

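Total RNA was measured by TaqMan RT-PCR with FAM probes, per the labels' protocols. The authors deposited linear ratios (fold values) of low-protein over control, per the file headers; neither the averaging over samples nor the reference or detection limit is stated there. Limma is named, per the submitters' processing notes, without its role. The 8 U6 spots of each assay set averaged 0 in log2 ratio, so the deposited ratios are relative to U6. A second deposited table supplied assay names; its 12 columns of per-sample values matched no sample label and were not used. The planned limma fit, detection limits, replicate block and left-out replicates need them and were not run.

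Ratios were converted to log2, and assays of 1 name were averaged on that scale. Named miRNAs are the members, the fixed lists and the controls, and the 1-base neighbours, chosen after values were seen. The members and lists were chosen with earlier results of these data known. Family arms were assigned from general knowledge for 78 miRNAs with a mouse sequence, 73 of them with a ratio. Counting and reference steps were tested on simulated data. Python 3.11.15, numpy 2.4.6, pandas 2.3.3 and matplotlib 3.10.9 were used.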

Additional observations from a re-analysis of the deposited data

How the results depend on the processing

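With the other small RNA controls as the reference, the log2 ratio went from 0.33 to 0.13 for miR-204 and from -0.66 to -0.86 for miR-211. The median of the list of insulin production and the Txnip and MafA pathway went from -0.05 to -0.24. Each moved by more than the pooled SD of the A-set control spots other than U6 (0.17), and the A-set reference itself shifts by 0.20. Both members kept their side of 1 and of the 1.5-fold limit under this reference, under the median miRNA (0.37 and -0.63) and under references from their own block, the U6 spot (0.30 and -0.69) or the other controls (0.29 and -0.70), which were chosen after seeing the data. MiR-211 is close to the limit and is not past 2-fold under any of these. At 2-fold the count of miRNA names above 1 fell from 99 to 65 and below 1 from 93 to 66, by construction. The other controls as the reference gave 87 above and 125 below, and the share of calls above 1 turned from a majority to a minority. No paired analysis was possible because the per-sample columns match no label. The number of samples behind each ratio and the threshold cycles were not analysed here, so precision cannot be stated.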
